A study of Homo sapiens with 6 samples.

Results

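The proteasome degrades most proteins that a cell marks with ubiquitin. The mRNAs of its subunits were examined here in HEK293T cells, which derive from human embryonic kidney and carry the SV40 large T antigen. All transcripts of the mRNA-seq table were taken whose gene name starts with PSMA, PSMB, PSMC, PSMD, PSME, PSMF or PSMG and whose RefSeq accession is that of an mRNA. This rule found 75 transcripts of 48 genes among 38438 transcripts, of which 31170 have mRNA accessions. Of the 48 genes, 28 had a single accession and the others had up to 4. The rule also takes PSMC3IP, which encodes a recombination factor and not a proteasome subunit, so its 4 accessions are kept apart below. It leaves out 5 mRNA accessions of these genes that carry no name in the table (of PSMA1, PSMB2, PSMC2 and PSMC3IP) and 4 noncoding accessions with such names.

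Cells under growing conditions were compared with cells under mTOR-inactive conditions, in which the mTOR kinase inhibitor PP242 had been added at 2.5 µM for a time that the labels do not give. Levels of mRNA were measured by strand-specific mRNA-seq of polyA RNA in 2 libraries per condition, described by the submitters as biological duplicates, from cells without 4-thiouridine. Binding of endogenous LARP1, an RNA binding protein known for its association with mRNAs that start with a terminal oligopyrimidine (TOP) sequence, was measured by PAR-CLIP in 1 library per condition. In PAR-CLIP, cells take up 4-thiouridine (here 100 µM for 14 hr) and are irradiated with ultraviolet light (150 mJ/cm2), and the crosslinked bases then appear as T-to-C conversions in the reads. All cells were of the same line, with no genetic change between the groups.

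The proteasome core particle is a barrel of stacked rings, with outer rings of α subunits (PSMA genes) that gate the entry and inner rings of β subunits (PSMB genes), some of which are the proteases. A regulatory particle on the end of the barrel recognises ubiquitin, unfolds the substrate with a ring of ATPases (PSMC genes, in the base) and removes the ubiquitin chain in its lid (most PSMD genes). Other activators (PSME genes) can take the place of the regulatory particle, PSMF1 is an inhibitor, and dedicated chaperones (PSMG genes for the core, and PSMD5, PSMD9 and PSMD10 for the base) help to assemble the complex. Subunit genes are known to be transcribed in concert through the factor NFE2L1, and some of them also through the related NFE2L2.

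The 4 mRNA-seq libraries were of similar depth, which the steps between low values put at 1 to 1.061 times that of the first growing library, and each listed between 36046 and 36149 transcripts above 0. Values are RPKM, reads scaled by transcript length in kilobases and by the total that mapped, so the number of reads behind a value is not known. Neuronal filaments and vimentin, which HEK293 cells are known to express, were present in all 4 libraries (NEFL 6.79 to 7.61 RPKM, NEFM 15.7 to 18.2, INA 15.9 to 16.7, VIM 210 to 239), whereas the kidney marker PAX2 lay at 0.116 to 0.136 RPKM. Of the 10 listed markers of blood, endothelium, liver and fibroblasts, only COL1A1 exceeded 1 RPKM in any library (1.76 to 1.84), and the leukocyte marker PTPRC was at 0 in 3 of 4 libraries. These are bulk samples, in which fewer cells and less RNA per cell cannot be told apart.

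Subunits of the constitutive proteasome were among the more abundant mRNAs of HEK293T cells. Taking the highest accession of each gene, all 31 genes of the α ring, β ring, base and lid exceeded 1 RPKM, and their median under growing conditions was 91.7 RPKM. The median of all 10991 mRNA genes of at least 1 RPKM was 7.60 RPKM, and the median subunit stood at percentile 96.1 among them. PSMB4, a noncatalytic β subunit, was the highest, with 293.8 and 292.2 RPKM in the growing libraries and 288.4 and 287.4 in the mTOR-inactive libraries. It was followed by the α subunit PSMA7, with 209 ± 0.492 RPKM (SD, n = 2) in growing and 203 ± 1.46 in PP242-treated cells, and the β subunit PSMB1, with 206 ± 0.0850 and 205 ± 5.71 RPKM. PSMA7 and PSMB1 did not differ beyond their spread over the 4 libraries, while PSMB4 lay above both in every library. The lowest were the α subunit PSMA5 (14.0 ± 0.316 RPKM under growing conditions), the β subunit PSMB2 (19.3 ± 0.253) and PSMD1, a scaffold of the base (27.5 ± 0.815).

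**Figure D1:**
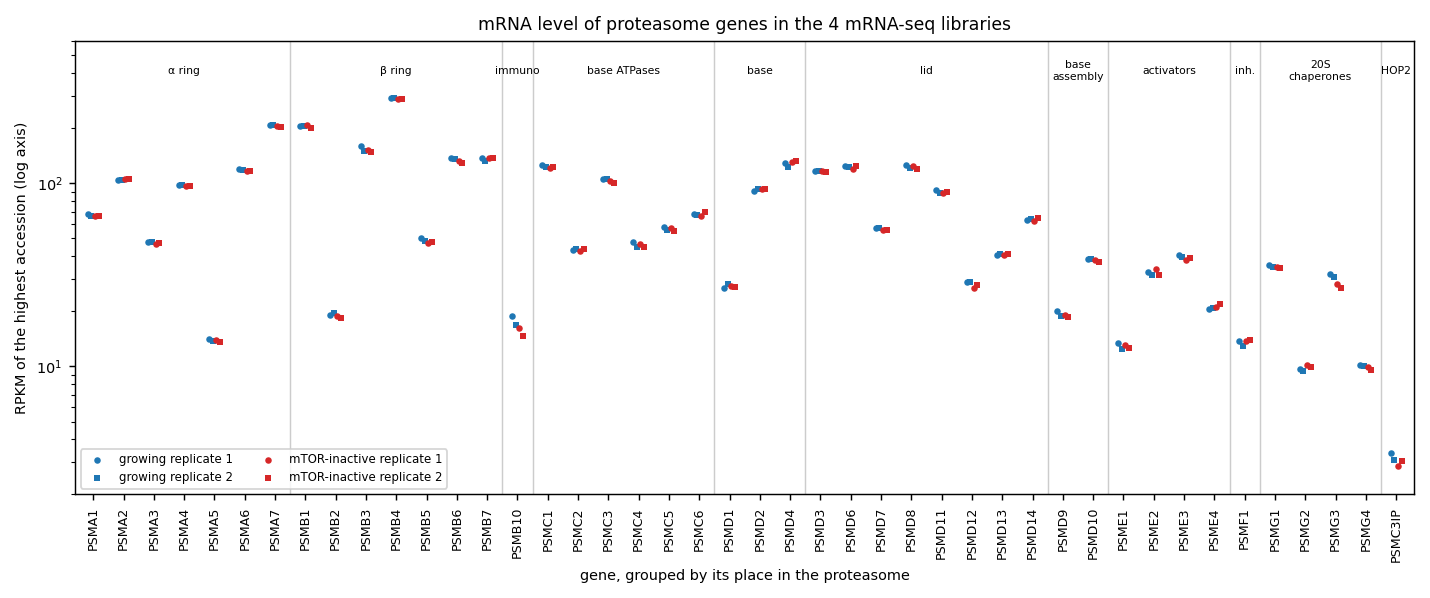
RPKM of the highest accession of each of the 44 proteasome genes of at least 1 RPKM (log axis), 1 point per mRNA-seq library, in blue for growing and red for mTOR-inactive conditions, grouped by place in the complex (immuno, PSMB10; inh., the inhibitor PSMF1; HOP2, PSMC3IP, which is no subunit). For nearly every gene the 4 points lie almost on top of each other, from PSMB4 at 293 RPKM down to PSMA5 at 14.0 RPKM among the constitutive subunits.

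Within the rings, the base and the lid, genes differed less by the sum over their accessions than by their highest accession. How much of the spread between subunits comes from the assignment of reads was not tested. The authors divided reads that match several loci evenly among them, so a gene with several nearly identical accessions has a lower RPKM on each. Summed over all accessions of a gene, including those without a name in the table, PSMA5 had 46.8 RPKM in place of 14.0 under growing conditions (4 accessions), PSMB2 47.3 in place of 19.3 (3 accessions) and PSMA4 275 in place of 97.9 (3 accessions). The ratio of the highest to the lowest gene was 15.0 by the highest accession and 5.89 by the sum in the α ring, 15.1 and 6.19 in the β ring, 2.86 and 1.93 among the ATPases of the base, and 4.29 and 2.20 in the lid. Subunits stand in equal number in each ring and in the lid, and by the sum the mRNAs of the ATPase ring and of the lid were the closest to each other in level.

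**Figure D2:**
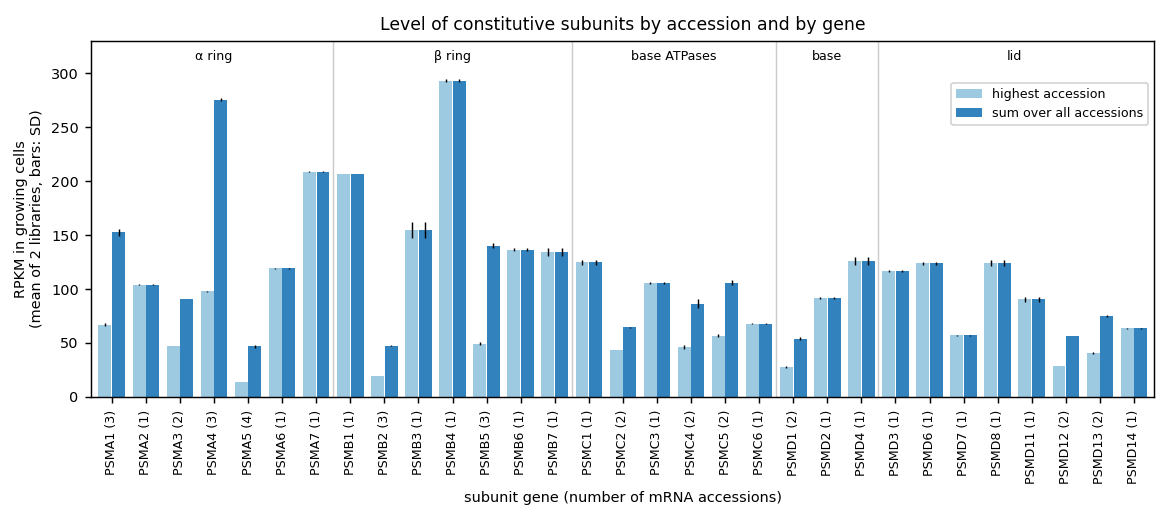
RPKM under growing conditions (mean of 2 libraries, error bars SD) of the 31 constitutive subunit genes, by the highest accession (light blue) and by the sum over all mRNA accessions of the gene (dark blue), with the number of accessions in parentheses. Genes with several accessions, such as PSMA4 (97.9 against 275 RPKM), PSMA5 (14.0 against 46.8) and PSMB5 (49.2 against 140), gain in the sum.

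The β subunits that replace the constitutive proteases in particular tissues were at low levels, with 1 exception. PSMB8 and PSMB9, known as interferon-inducible subunits of the immunoproteasome, reached at most 0.0506 and 0.301 RPKM in any library. PSMB11, the subunit of the thymus, was at 0 in 3 libraries and at 0.0303 RPKM in the other, and PSMA8, the testis form of PSMA7, had no named mRNA accession in the table. PSMB10, the third inducible subunit, was in contrast present at 18.8 and 16.8 RPKM under growing conditions and at 16.2 and 14.7 RPKM under mTOR-inactive conditions. The groups of PSMB10 did not overlap, but its difference of -0.19 ± 0.06 on the log2(RPKM + 1) scale (SE, 95% interval -0.35 to -0.04) did not pass the threshold (limma, Benjamini-Hochberg adjusted p = 0.112). Without the first growing library the difference was -0.12. For PSMB9 the values were 0.261 and 0.301 RPKM under growing and 0.168 and 0.109 under mTOR-inactive conditions, below the minimum for the test. PSMD5, an assembly factor of the base, was also low, at 0.169 to 0.206 RPKM, while its fellow factors PSMD9 and PSMD10 stood at 19.5 ± 0.882 and 38.7 ± 0.127 RPKM under growing conditions.

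Whether mTOR inactivation altered these mRNAs was tested with limma on log2(RPKM + 1), in the 21014 transcripts whose mean over the 4 libraries reached 1 RPKM. Fold changes on this scale understate those of low transcripts. Of the 75 proteasome transcripts 70 were tested. The 5 that were too low belong to PSMB8, PSMB9, PSMB11 and PSMD5. After PP242, 0 of the 70 transcripts were higher and 3 were lower at an adjusted p under 0.05, and these 3 belong to PSMG3 and PSMG4, chaperones of α ring assembly. At an unadjusted p under 0.05 the counts were 0 higher and 6 lower. Both are smaller shares than the 2491 higher and 3374 lower of all 21014 transcripts tested. The 3 calls are 4.29% of the proteasome transcripts tested, against 9.93% called in either direction over all transcripts tested, 3.48% higher and 6.45% lower.

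None of the constitutive particle was called. Of the 45 transcripts of the α ring, β ring, base and lid, 0 passed the threshold, against 9.93% of all transcripts tested. Their log2 differences ranged from -0.08 to 0.06 with a median of -0.02. By the highest accession of each gene, the 95% intervals of all 31 genes lay between -0.14 and 0.13, so that a change larger than 0.25 on the log2 scale lay outside the interval of every one of them. The smallest adjusted p among these transcripts was 0.134, for PSMB6, the caspase-like protease of the β ring. It had 137 and 135 RPKM under growing and 132 and 128 RPKM under mTOR-inactive conditions, a difference of -0.07 ± 0.02 (SE). Its groups did not overlap. PSMB5, the chymotrypsin-like protease and the target of the drug bortezomib, was at 50.2 and 48.2 RPKM under growing and 47.3 and 47.7 RPKM under mTOR-inactive conditions on its highest accession (adjusted p = 0.315 by limma with Benjamini-Hochberg adjustment). PSMB7, the trypsin-like protease, was at 137 and 132 against 137 and 137 RPKM, and its groups overlapped. The largest positive difference was that of the ubiquitin receptor PSMD4, with 129 and 123 against 130 and 133 RPKM (0.06, adjusted p = 0.218 by the same test).

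Most differences had the same sign but were small. The log2 difference was below 0 in 57 of the 70 transcripts (81.4%), against 50.6% of all transcripts tested. Accessions of a gene share reads, and by gene 34 of 44 were below 0. Among transcripts of at least 10 RPKM on average the shares were 83.6% and 55.4%. The libraries of the 2 conditions did not overlap, with lower values after PP242, in 30 of the 70 transcripts. This is a larger share than the 6296 of all 21014 transcripts tested (30%). With higher values after PP242 they did not overlap in 5 of the 70, a smaller share than the 5997 of 21014 (28.5%). The median difference of the proteasome transcripts was -0.0201, between -0.0406 and -0.0128 when single libraries were left out, and that of all transcripts was -0.0013. The share below 0 depended on single libraries and on scaling. Without the first growing library it was 62.9%, against 50.4% of all transcripts, and with the libraries scaled to the same median it was 71.4%, against 44.6%.

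**Figure D3:**
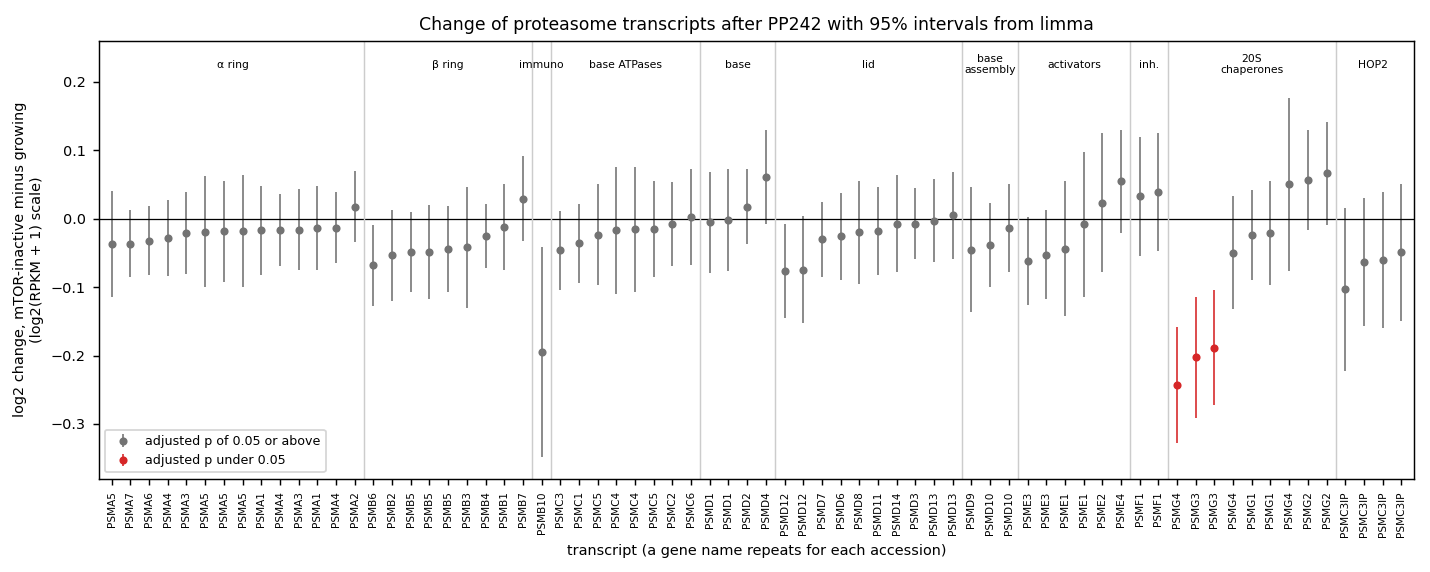
Log2 difference between mTOR-inactive and growing conditions (log2(RPKM + 1) scale, points) with the 95% interval from limma (bars) for the 70 tested proteasome transcripts, grouped by place in the complex (HOP2, PSMC3IP). Transcripts at an adjusted p under 0.05 are red: they are the 3 transcripts of PSMG3 and PSMG4, at -0.19 to -0.24, while the constitutive subunits lie between -0.08 and 0.06.

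The core particle chaperones gave all 3 calls. PSMG3, which acts in a pair with PSMG4, had 31.8 and 30.9 RPKM under growing and 28.1 and 26.7 RPKM under mTOR-inactive conditions on NM_001134340.1. Both mTOR-inactive libraries lay below both growing libraries. Its level fell by 12.6%, a log2 difference of -0.19 ± 0.03 (SE, 95% interval -0.27 to -0.10, adjusted p = 0.0266 by limma with Benjamini-Hochberg adjustment). The other accession of PSMG3, NM_032302.3, had 25.0 and 24.1 against 21.8 and 20.6 RPKM (-0.20 ± 0.04, adjusted p = 0.0259 by the same test), but as most of its sequence is shared, the 2 accessions are not independent. The 3 accessions of the antisense RNA PSMG3-AS1 lay at 0.228 to 0.336 RPKM. Without the first growing library the adjusted p-values of the PSMG3 accessions were 0.100 and 0.097, without the second growing library 0.0583 and 0.0533, and without the second mTOR-inactive library 0.0809 and 0.0772. Without the filter on low values they were 0.127 and 0.128.

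PSMG4 passed the threshold on 1 of its 3 accessions. NM_001135750.1 had 8.09 and 7.97 RPKM under growing and 6.48 and 6.79 RPKM under mTOR-inactive conditions. These groups did not overlap, and the log2 difference was -0.24 ± 0.03 (SE, 95% interval -0.33 to -0.16, adjusted p = 0.0134 by limma with Benjamini-Hochberg adjustment), or 0.0613 without the first growing library and 0.0851 without the filter on low values. The more abundant NM_001128591.1 had 10.2 and 10.0 against 9.99 and 9.53 RPKM (-0.05, adjusted p = 0.390), and NM_001128592.1 had 6.84 and 7.60 against 7.68 and 7.33 RPKM (0.05, adjusted p = 0.570). The difference between the accessions of PSMG4 was not tested. PSMG1 and PSMG2, which form the other chaperone pair of the α ring, did not pass the threshold. PSMG1 was at 35.9 and 34.8 against 34.9 and 34.7 RPKM, with overlapping groups. PSMG2 was at 9.72 and 9.50 against 10.2 and 9.99 RPKM, and its groups did not overlap, in the direction opposite to PSMG3 (0.07, adjusted p = 0.225).

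None of the 6 transcripts of the 4 activators passed the threshold in either direction (limma), and 0 of them had an unadjusted p under 0.05. Of all 21014 transcripts tested, 9.93% passed the threshold, and 2491 higher and 3374 lower had such an unadjusted p. At such shares, 6 transcripts are too few to tell whether the activators differ from other transcripts. PSME3, the nuclear activator, was the most abundant, at 40.7 and 39.6 RPKM under growing and 38.3 and 39.0 RPKM under mTOR-inactive conditions, with groups that did not overlap (-0.05, adjusted p = 0.258 by limma with Benjamini-Hochberg adjustment). PSME4, the large single-chain activator of nuclei and germ cells, was at 20.5 and 20.9 against 21.1 and 21.96 RPKM, higher in both mTOR-inactive libraries (0.05, adjusted p = 0.302). PSME1 and PSME2, the interferon-inducible partners, overlapped between conditions, at 12.4 to 13.5 and at 31.7 to 34.1 RPKM over the 4 libraries. The inhibitor PSMF1 had 13.4 ± 0.539 RPKM in growing and 13.8 ± 0.119 RPKM in PP242-treated cells (SD, n = 2). PSMC3IP, which is no subunit, lay at 3.38 and 3.10 against 2.84 and 3.04 RPKM on its highest accession (-0.10, adjusted p = 0.226).

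A list of 25 further genes of the pathway covered other subunits, ubiquitin genes, shuttle factors, deubiquitinases and regulators of proteasome genes. Of its 41 tested transcripts 0 were higher and 4 were lower after PP242, 9.76% of the list against 9.93% of all transcripts. These 4 belong to NFE2L2 and UBQLN2. By gene the calls were 2 of 25, against 1569 of the 12606 genes with a tested transcript. NFE2L2, the transcription factor of the oxidative stress response, had 5.76 and 5.90 RPKM under growing and 4.82 and 4.59 RPKM under mTOR-inactive conditions on NM_006164.4. Its libraries did not overlap, and the log2 difference was -0.26 ± 0.04 (SE, adjusted p = 0.0129 by limma with Benjamini-Hochberg adjustment). Its 2 other accessions, which are not independent of the first as accessions of a gene share reads, gave -0.27 and -0.25 (adjusted p = 0.0122 and 0.0111 by the same test). Without the second growing library these adjusted p-values were 0.0568, 0.0521 and 0.0533, and without the filter on low values 0.0866, 0.0878 and 0.0774.

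UBQLN2, which shuttles ubiquitinated proteins to the proteasome, had 17.2 and 16.3 RPKM under growing and 13.7 and 13.7 RPKM under mTOR-inactive conditions (-0.27 ± 0.03, adjusted p = 0.00923 by limma with Benjamini-Hochberg adjustment). Without the filter on low values, the adjusted p of UBQLN2 was 0.0811. NFE2L1, the factor that raises proteasome transcription when the proteasome is inhibited, overlapped between conditions at 26.7 to 28.1 RPKM. POMP, a chaperone of β ring assembly, was at 78.2 and 77.5 against 72.9 and 74.7 RPKM, without overlap (-0.08, adjusted p = 0.107). As each condition has 2 libraries, the smallest two-sided p of an exact permutation test for any of these transcripts is 0.333, so all calls rest on the spread that limma shares across transcripts.

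As NFE2L1 and NFE2L2 act through antioxidant response elements, RefSeq promoter sequences (GRCh38.p14, 250 bases before to 50 bases after the start) were searched on both strands for the core TGACNNNGC. A sequence was present for 42 of the 48 genes, and PSMA7, PSMB1, PSMB6, PSMB7, PSMD4 and PSMG3 had none. The core was found in 13 of the 42 (31%), against 13.6% of all 27305 promoters. Among genes of at least 1 RPKM it was found in 11 of 38 (28.9%), against 15.3% of 8233, and among the constitutive subunits alone in 5 of 26 (19.2%). Of the 15 matches, 12 lay wholly upstream of the start, in 11 genes. Windows of 25 bases around 5 of these upstream matches are printed to show how the core sits in promoters of the β ring, the lid, the activators and the chaperones; they were chosen after the values were seen, and the capitals mark the fixed letters of the core.
PSMB3 (β ring, chr17:38752629-38752653, plus strand): ctccgtttTGACtttGCaaccaaac
PSMD3 (lid, chr17:39980762-39980786, plus strand): ccctttgtTGACtcgGCcatcggcc
PSMD12 (lid, chr17:67366726-67366750, minus strand): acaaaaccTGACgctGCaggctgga
PSME4 (activator, chr2:53971011-53971035, minus strand): cggcggctGCagcGTCAccagcaga
PSMG2 (chaperone, chr18:12658691-12658715, plus strand): gtttcccgTGACcccGCggccgctc
In PSME4 the core is read on the strand opposite to the gene, so that its reverse complement is printed. In PSMB3 the match begins at position -104 relative to the start. By role, the core was found in 3 of 4 activators, 2 of 3 chaperones of the core particle and 2 of 3 base assembly factors, and in 0 of 6 α ring, 1 of 4 β ring, 1 of 6 ATPase, 1 of 2 other base, 2 of 8 lid and 1 of 4 tissue-specific subunit promoters. Of the chaperone genes with a called transcript, PSMG4 had no match and PSMG3 had no sequence. The matches are a description of the letters and were not tested as binding sites. In the same sequences the first transcribed bases were read for a C followed by 4 pyrimidines, as in TOP mRNAs. This start was found in 0 of 42 proteasome promoters, against 5.64% of those of mRNA genes of at least 1 RPKM (464 of 8233) and 4.04% of all. At such shares, 42 promoters are too few to tell whether proteasome genes have fewer such starts than other genes. The annotated start was read, and starts in these cells were not measured.

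LARP1 sites were listed on few proteasome mRNAs, as on few mRNAs in general. Of all mRNA genes of at least 1 RPKM, 10.3% had a listed site in the growing and 11% in the mTOR-inactive library. Over both PAR-CLIP libraries, 7 proteasome genes had a listed site. The other 37 of the 44 proteasome genes of at least 1 RPKM had none, among them PSMB4, PSMA7 and PSMB1. The share over both libraries together was not computed for all genes. With 1 library per condition no difference between conditions has a replicate check, and no test was made. Site levels are RPM, reads scaled by the total that mapped in each library. With a minimum of 1 RPM, 2 of the 44 genes (4.55%) had a site under growing conditions, against 1.74% of all 10991 mRNA genes of at least 1 RPKM. Under mTOR-inactive conditions these were 4 of the 44 genes (9.09%), against 3.78%. Abundant mRNAs give more reads, and among genes of at least 10 RPKM the shares were 4.88% against 3.06% under growing and 9.76% against 6.78% under mTOR-inactive conditions. With a minimum of 10 RPM the shares of the 44 genes were 2.27% against 1.46% of all genes in the growing and 9.09% against 3.38% in the mTOR-inactive library, and among genes of at least 10 RPKM 2.44% against 2.7% and 9.76% against 6.37%. Counting every listed site of any RPM, they were 6.82% against 10.3% and 11.4% against 11% of the genes of at least 1 RPKM, and 7.32% against 9.67% and 12.2% against 13.2% of those of at least 10 RPKM. These shares rest on at most 3 proteasome genes under growing and at most 5 under mTOR-inactive conditions, and whether the proteasome genes lay above or below all genes varied with the minimum and the background. Proteasome mRNAs held 692 RPM, 0.26% of the RPM on all mRNAs, in the growing library and 2850 RPM, 0.995%, in the mTOR-inactive library. These totals rest on few sites, and a site on PSMB2 gave 690 RPM of the growing total. Over all mRNA genes, distinct sites of at least 1 RPM numbered 247 in the growing and 548 in the mTOR-inactive library.

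**Figure D4:**
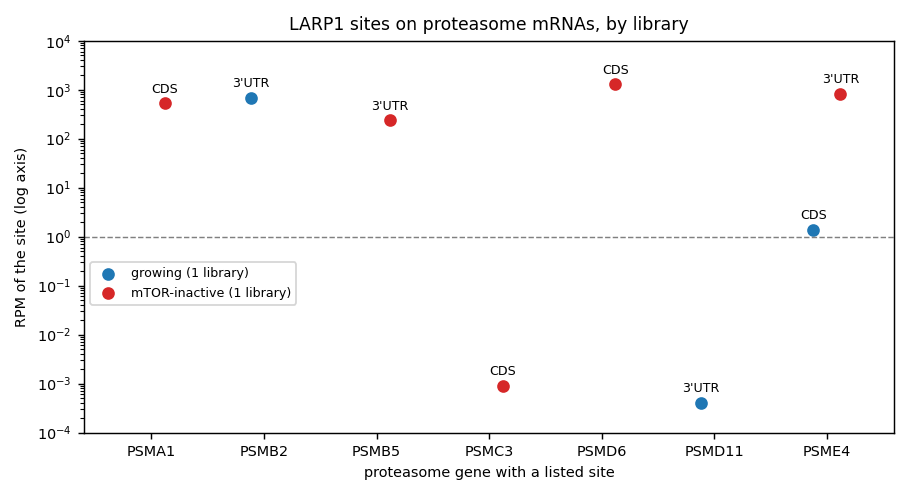
RPM (log axis) of the LARP1 sites listed on proteasome mRNAs, each site once, in the growing library (blue) and the mTOR-inactive library (red), with the region of the transcript; the dashed line marks 1 RPM. The growing library has 1 site far above the line (PSMB2, 690 RPM) and the mTOR-inactive library has 4 (PSMD6, PSME4, PSMA1 and PSMB5, 237 to 1279 RPM), with no site in a 5’UTR.

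No proteasome site lay in a 5’UTR. The 8 distinct sites, 6 of them of at least 1 RPM, were in CDSs or 3’UTRs. Of all distinct mRNA sites 6.52% in the growing and 6.16% in the mTOR-inactive library were in 5’UTRs. At such shares, 8 sites are too few to tell whether proteasome mRNAs have fewer 5’UTR sites than other mRNAs. Only PSME4 had a site in both libraries, in different regions. The value of each site of at least 1 RPM was listed on no other gene.

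Under growing conditions the main site lay in the 3’UTR of PSMB2 (NM_002794.4, nt 1072–1092), a noncatalytic β subunit, with 690 RPM. It ranked 79 among the 1964 distinct mRNA sites of the library. The same reads are listed on both PSMB2 accessions without a name, at nt 548–568 and nt 704–724. Divided by the RPKM of the named accession and multiplied by 1000, as the authors normalize binding to mRNA level, the value was 35680. That accession held 19.3 of the 47.3 RPKM of the gene, so the normalized value would be lower on the level of the whole gene. The CDS of PSME4 (NM_014614.2, nt 5173–5185) had a site of 1.39 RPM, and the 3’UTR of PSMD11, a lid subunit, one of 0.0004 RPM.

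After PP242 the highest site lay in the CDS of PSMD6 (NM_014814.1, nt 633–655), a lid subunit, with 1279 RPM, which ranked 65 among 2044 distinct mRNA sites. The mRNA of PSMD6 was at 124 ± 1.60 RPKM under growing and 121 ± 2.95 under mTOR-inactive conditions (SD, n = 2), and these groups overlapped. The second was in the 3’UTR of PSME4 (nt 6417–6447), with 808 RPM. In this library the deposited T-to-C column was a fixed multiple of RPM (28.3) at 67.3% of the sites of at least 1 RPM, and departed from it at the others. At the PSME4 site it was at 13.2% of that multiple, whereas it was at 99.99% to 100.03% for PSMD6, PSMA1 and PSMB5. PSME4 is the least abundant of these mRNAs, and its normalized value of 37515 exceeded that of PSMD6, 10532.

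A site of 526 RPM was listed in the CDS of PSMA1, an α subunit, at nt 692–730 of NM_002786.3 and nt 909–947 of NM_148976.2. With 39 nt it was the longest of the proteasome sites. PSMB5 had a site of 237 RPM in its 3’UTR, listed on all 3 accessions (nt 800–825 of NM_001130725.1, nt 1153–1178 of NM_002797.3 and nt 1238–1263 of NM_001144932.1). The CDS of PSMC3, an ATPase of the base, had a site of 0.0009 RPM. The mRNA levels of PSMA1 and PSMB5 did not pass the threshold between conditions (adjusted p = 0.749 and 0.315 by limma with Benjamini-Hochberg adjustment).

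Among the 25 further genes of the pathway, 0 had a site of at least 1 RPM in the growing library and 3 did in the mTOR-inactive library, which holds more such sites over all genes as well (3.78% against 1.74% of the mRNA genes of at least 1 RPKM). With 1 library each this difference was not tested. The 3 sites lay in the 3’UTR of UBA6, which activates ubiquitin (1530 RPM), in the CDS of the shuttle factor UBQLN1 (342 RPM) and in the 3’UTR of the ubiquitin gene UBB (30.6 RPM). UBB was far more abundant than any subunit, at 1193 ± 22.1 RPKM under growing conditions. In the growing library the sites on these genes reached at most 0.0305 RPM, on USP14, a deubiquitinase of the regulatory particle.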

How the data were processed

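LARP1 PAR-CLIP (1 library per condition) and mRNA-seq (2 libraries per condition) were performed in HEK293T cells. The authors removed linkers and mapped reads with Bowtie to the GRCh37 transcriptome. For mRNA-seq they kept perfect matches, divided reads of several loci evenly and deposited RPKM per transcript and library. For PAR-CLIP they clustered and filtered reads by T-to-C conversion and deposited RPM per site and a signal column (RPM per RPKM, times 1000). They also deposited a T-to-C value per site, which is taken as a score because its scale is not described. Counting errors are left out, as total reads were not used here.

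The mRNA-seq table has 39711 lines, and 1273 repeated lines were dropped. The test was that of limma (version 3.58.1, under R 4.3.3; lmFit, then eBayes with the trend option) on log2(RPKM + 1), in transcripts of at least 1 RPKM on average, two-sided, with Benjamini-Hochberg adjustment over all tested transcripts and a threshold of 0.05. P-values set the difference between conditions against the spread between the 2 libraries of a condition, which limma shares in part across transcripts. On simulated data for 20947 transcripts, the test called 184 of 200 transcripts changed by 1 on the log2 scale and 9 unchanged ones, and 0 in data without any change. Values were drawn independently for each library, with a spread set by the level. The called proteasome and further pathway transcripts differed by less, -0.19 to -0.27. How the test performs at changes of that size was not simulated. Python 3.11.15, pandas 2.3.3, numpy 2.4.6 and matplotlib 3.10.9 served for the remaining steps. A site listed on several accessions of a gene was counted once. Named are genes with a listed site, called transcripts, the 3 highest and 3 lowest subunits, and all tissue-specific subunits, activators, inhibitors and core chaperones. A gene of the further pathway list is not reported here. Any other gene was picked with its values in view. The members, lists and tests were chosen with earlier results of these data known. The background of genes of at least 10 RPKM and the sums over accessions were added after seeing the data.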

Additional observations from a re-analysis of the deposited data

How the results depend on the processing

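Under 2 other pseudocounts, scaling to the same median and eBayes without a trend, the numbers of proteasome and further pathway transcripts called stayed at 3 and 4 lower, and 0 proteasome transcripts were higher under any alternative run. Without a filter on low values, when 38438 transcripts share the adjustment, 0 proteasome, 0 further pathway and 120 of all transcripts were called in place of 3, 4 and 2087. With a mean of at least 5 RPKM 2 further pathway transcripts were called, and with a single transcript per gene 1 proteasome transcript was lower. When 1 library was left out, 0 to 3 proteasome, 1 to 4 further pathway and 863 to 1060 of all transcripts were called, and the median proteasome difference was -0.0406 to -0.0128. Over the alternatives the adjusted p ranged from 0.0118 to 0.128 for PSMG3 (NM_032302.3), from 0.00585 to 0.0851 for PSMG4 and from 0.00326 to 0.0811 for UBQLN2. Same-numbered libraries did not deviate together (correlation 0.0401 across transcripts), and the replicate block gave 4 lower proteasome transcripts, with PSMB10 added (adjusted p = 0.0191 by limma), and 2135 of all. Differences near 0 changed sign. With median scaling those of PSMD1, PSME1 and UBA6 were 0.0063, 0.0037 and 0.0056. With 1 library left out the ranges were -0.0354 to 0.0067 for PSMA1, -0.0401 to 0.003 for PSMA5, -0.0405 to 0.0161 for PSMB1, -0.0348 to 0.0235 for PSMD1, -0.0413 to 0.0056 for PSMD11, -0.0299 to 0.0759 for PSME2, -0.0634 to 0.047 for PSME1, -0.0411 to 0.0284 for UBA6 and -0.0737 to 0.0357 for USP14. With a minimum of 10 RPM, 1 gene and not 2 had a site under growing conditions, and with every listed line counted the RPM after PP242 was 3850 in place of 2850. The cause of changes with a left-out library was not tested.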
